A study of Mus musculus with 3 samples.

Results

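The Hedgehog pathway was examined through 8 genes of the 21446 that the 3 libraries shared by gene identifier, and all 8 were listed in every library. They are the ligands Shh and Ihh, the receptor Ptch1, the transducer Smo, the transcription factors Gli1, Gli2 and Gli3 and the secreted and membrane-bound inhibitor Hhip, found by their symbols. Over all cells they received 53 UMIs (unique molecular identifiers, each standing for 1 captured transcript) for Shh, 322 for Ihh, 32573 for Ptch1, 25719 for Smo, 5273 for Gli1, 2572 for Gli2, 21680 for Gli3 and 1297 for Hhip.

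The cells came from mandibular molars of mice carrying a Pthrp-mCherry knock-in allele, which reports expression of PTHrP, a secreted peptide made by cementoblasts and their precursors. All 3 groups shared this allele and no other treatment, and cells were sorted for mCherry. The sorted cells still included immune and epithelial cells, in the paper's clusters and in the gates below. Not every cell in the data need therefore be of the cementoblast lineage. One library was made at postnatal day 15 (P15, 12926 cells), one at P25 (8971 cells) and the last at an age of 8 weeks (5192 cells), each from pooled teeth, so the ages have no replicates. The libraries held 188157997, 169712592 and 46234378 UMIs, with medians of 14253.5, 15834 and 8712.5 per cell.

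In the Hedgehog pathway a secreted ligand binds PTCH1, which releases its block on SMO, and SMO in turn controls the GLI proteins. GLI2 and GLI3 exist in activator and repressor forms, whereas GLI1 is an activator whose own gene is a pathway target. Ptch1 and Hhip are also targets, and both proteins restrain the signal. In teeth, epithelial Shh drives early tooth growth and root formation, Ihh is best known from chondrocytes and bone, and Gli1 marks mesenchymal progenitor cells of the dental follicle and periodontal ligament.

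Cells were assigned to gates by the UMIs of marker genes. The gates were Ptprc (at least 2 UMIs), the pan-leukocyte gene, and Krt14 (5), an epithelial keratin. Ifitm5 (3) and Ibsp (5) are genes of mineralising cells that mark the cementoblast kinds in this study. The others were Rgs5 (3), a pericyte gene, Pappa2 (3), Hand2 (3), a periapical marker of the study, and Mki67 (3), a proliferation gene. Pappa2 is not among the markers that the paper names and was chosen here. A cell took the first gate it passed in the order Ptprc, Krt14, Ifitm5, Ibsp, Rgs5, Pappa2, Hand2, Mki67, and a cell passing gates of more than 1 of the immune, epithelial and mesenchymal classes was set apart as mixed. Cells passing none are called ungated. At P15, P25 and 8 weeks, the Krt14 gate held 1763, 982 and 127 cells, Ibsp 1624, 2064 and 1521, Ifitm5 605, 784 and 275, Hand2 161, 143 and 72, Rgs5 306, 120 and 140, Pappa2 386, 19 and 9, and Mki67 391, 117 and 9. Ungated cells numbered 6549, 4348 and 3014. Although the cells were sorted for mCherry, 751, 185 and 18 cells passed the Ptprc gate, and their pathway levels are given as a background. Ambient RNA was not measured, so what this background consists of was not tested. Levels are UMI counts of the summed cells scaled to a common total (CPM), in the order P15, P25 and 8 weeks, and their intervals are exact Poisson or conditional binomial 95% intervals that cover counting error only.

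Some gates did not hold what their name implies at every age. The summed level of 5 mural cell markers in the Rgs5 gate was 2147 CPM at P15 but 453 at P25 and 414 in the 8-week library. Krt14 cells with 5 to 9 Krt14 UMIs carried a summed level of 6 epithelial markers of 540 CPM at P15 and 289 at P25, against 8282 and 12010 in cells with at least 100. Most Ifitm5-positive cells also had at least 5 Ibsp UMIs, since 485 of 668 cells with at least 3 Ifitm5 UMIs at P15, 742 of 852 at P25 and 258 of 275 in the 8-week library did, so the Ibsp gate holds Ibsp cells without Ifitm5. Most Hand2-positive cells of the later ages also passed a mineralising gate, since 683 cells at P25 and 482 in the 8-week library with at least 3 Hand2 UMIs were counted under Ibsp or Ifitm5. The libraries shared 55 barcodes in all.

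The promoters of 6 members (all but Shh and Gli1) were present in the RefSeq promoter table (GRCm38.p6). Those of the receptor and inhibitor genes that are also pathway targets are shown, since Ptch1 passed the test in the epithelial comparison and Hhip had a single high sum in Hand2 cells at P25. They are the 250 bases before the start of Ptch1 (chr13:63565736-63565985, minus strand) and of Hhip (chr8:80058009-80058258, minus strand), with the GC boxes GGGCGG and CCGCCC in capitals. The Ptch1 window belongs to an internal start, 7613 bases inside the gene body annotated by GENCODE, and the Hhip window adjoins its gene body.
Ptch1: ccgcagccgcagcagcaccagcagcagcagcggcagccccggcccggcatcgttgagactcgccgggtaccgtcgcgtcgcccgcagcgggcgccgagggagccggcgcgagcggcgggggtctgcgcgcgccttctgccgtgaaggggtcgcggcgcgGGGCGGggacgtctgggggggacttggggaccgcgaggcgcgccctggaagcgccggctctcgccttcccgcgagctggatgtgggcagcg
Hhip: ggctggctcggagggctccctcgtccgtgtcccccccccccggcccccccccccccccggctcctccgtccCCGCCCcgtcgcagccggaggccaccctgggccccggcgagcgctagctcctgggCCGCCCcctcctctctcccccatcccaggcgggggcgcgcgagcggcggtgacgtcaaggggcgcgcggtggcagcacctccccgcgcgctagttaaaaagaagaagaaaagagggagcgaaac
These windows were 78.4% and 76.0% G or C, against a median of 52.4% over 32851 windows. A GC box was found in 5 of the 6 member promoters and in 32.7% of all. The GLI-binding sequence GACCACCCA, searched with its reverse TGGGTGGTC over 300 bases from 250 before to 50 after the start, was in none of the 6 member windows and in 83 of the 32851 (0.253%), which says only that these letters are not in these windows. The gene bodies lie on chromosome 5 at 28456815 to 28467256 for Shh, chromosome 1 at 74945315 to 74951672 for Ihh, chromosome 13 at 63508328 to 63573598 for Ptch1, chromosome 6 at 29735503 to 29761365 for Smo, chromosome 10 at 127329882 to 127341974 for Gli1, chromosome 1 at 118834132 to 119053619 for Gli2, chromosome 13 at 15463235 to 15730026 for Gli3 and chromosome 8 at 79965851 to 80058006 for Hhip (GENCODE vM21). Ptch1 overlaps A930032L01Rik, Smo overlaps Gm13717 and Gli3 overlaps Gm48343 on their own strands, so reads from these overlaps could be split.

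The ligand genes were detected in few cells and in different gates. Most Shh UMIs fell in Krt14 cells, which held 34 of 38 at P15 and 13 of 13 at P25, whereas both UMIs of the 8-week library were in 1 Ibsp cell. In Krt14 cells its level was 1.24 CPM at P15 (34 UMIs), 0.476 at P25 (13 UMIs) and 0 in the 8-week library. At 8 weeks 3 UMIs would have been 1.64 CPM, so a level like that of P15 would have given few UMIs. The ratio of 8 weeks to P15 had an interval up to 1.71, so the absence of UMIs does not set these ages apart. At P15 the 34 UMIs fell in 11 of 1763 Krt14 cells, with 11 UMIs in a single cell, and 2 cells held 50% or more of them. At P25 the 13 UMIs fell in 2 cells. The 11 cells at P15 had between 10 and 238 Krt14 UMIs, with a median of 68. Shh was too sparse to pass the filter on low counts and entered no test.

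At P15 the Shh-positive Krt14 cells had high levels of Atp1b1, a sodium pump subunit, at 533 CPM against 12.2 in the other Krt14 cells, of Sfrp5, a secreted Wnt antagonist, at 414 against 7.96, and of the keratin Krt17 at 5834 against 734. Cyp26a1, a retinoic acid-degrading enzyme, was at 410 CPM against 56.4 there and again among the leading genes of the 2 cells at P25. Their Ptch1 level was 112 CPM against 48.7 in the other Krt14 cells at P15. These few cells were chosen by their Shh UMIs, and the values carry no test.

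Ihh was found mainly in Ifitm5 cells at P15 and P25, where they held 79 of 135 (58.5%) and 121 of 166 UMIs (72.9%), whereas in the 8-week library Ibsp cells held 10 of 21 (47.6%) and Ifitm5 cells 5 (23.8%). The level in that gate was 6.73 CPM at P15 (79 UMIs), 5.98 at P25 (121 UMIs) and 1.32 in the 8-week library (5 UMIs). In Ibsp cells, the other mineralising gate, it was 0.947, 0.155 and 0.676 CPM, and in Krt14 cells 0.183, 0.0732 and 0. The Ifitm5 gate was 7.11 times the Ibsp gate at P15 (4.48 to 11.6) and 38.6 times at P25 (16.1 to 121), and at 8 weeks 1.96 times, with an interval that includes equal levels (0.525 to 6.28). The Ihh UMIs of the Ifitm5 gate were spread over 58 of 605 cells at P15 (9.59%), 83 of 784 at P25 (10.6%) and 5 of 275 in the 8-week library (1.82%), unlike the few Shh-bearing cells. With each cell thinned to 3000 UMIs the shares were 2.82% (exact 95% interval 1.65 to 4.48), 1.42% (0.709 to 2.52) and 0.370% (0.00938 to 2.05), with intervals that overlapped. Ptprc cells held 1, 1 and 0 Ihh UMIs.

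In the fit over libraries, described with the comparisons of gates, Ihh in Ibsp cells was -3.26 on the log2 scale against Ifitm5 cells (SE 0.90) but did not pass the threshold (adjusted p = 0.0669). The adjusted p was 0.0505 without P15, 0.817 without P25 and 0.126 without 8 weeks. Within the Ifitm5 gate the 8-week level was 0.197 times that of P15 (0.0621 to 0.478), and P25 was 0.888 times P15 (0.663 to 1.19), an interval that includes equal levels. Ifitm5 cells with an Ihh UMI also had more Spp1 at P15, the osteopontin gene, at 6189 CPM against 3290 without. Spp1 was not among their leading genes at P25 or 8 weeks. Cdo1 was among them at P15 (111 CPM against 60.6) and P25 (215 against 127). The Ptch1 level of the Ihh-bearing cells was 91.9 CPM against 61 at P15 and 49.8 against 49.9 at P25. These cells were picked by their own Ihh UMIs and were deeper at P15 and P25, so the values carry no test.

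**Figure D1:**
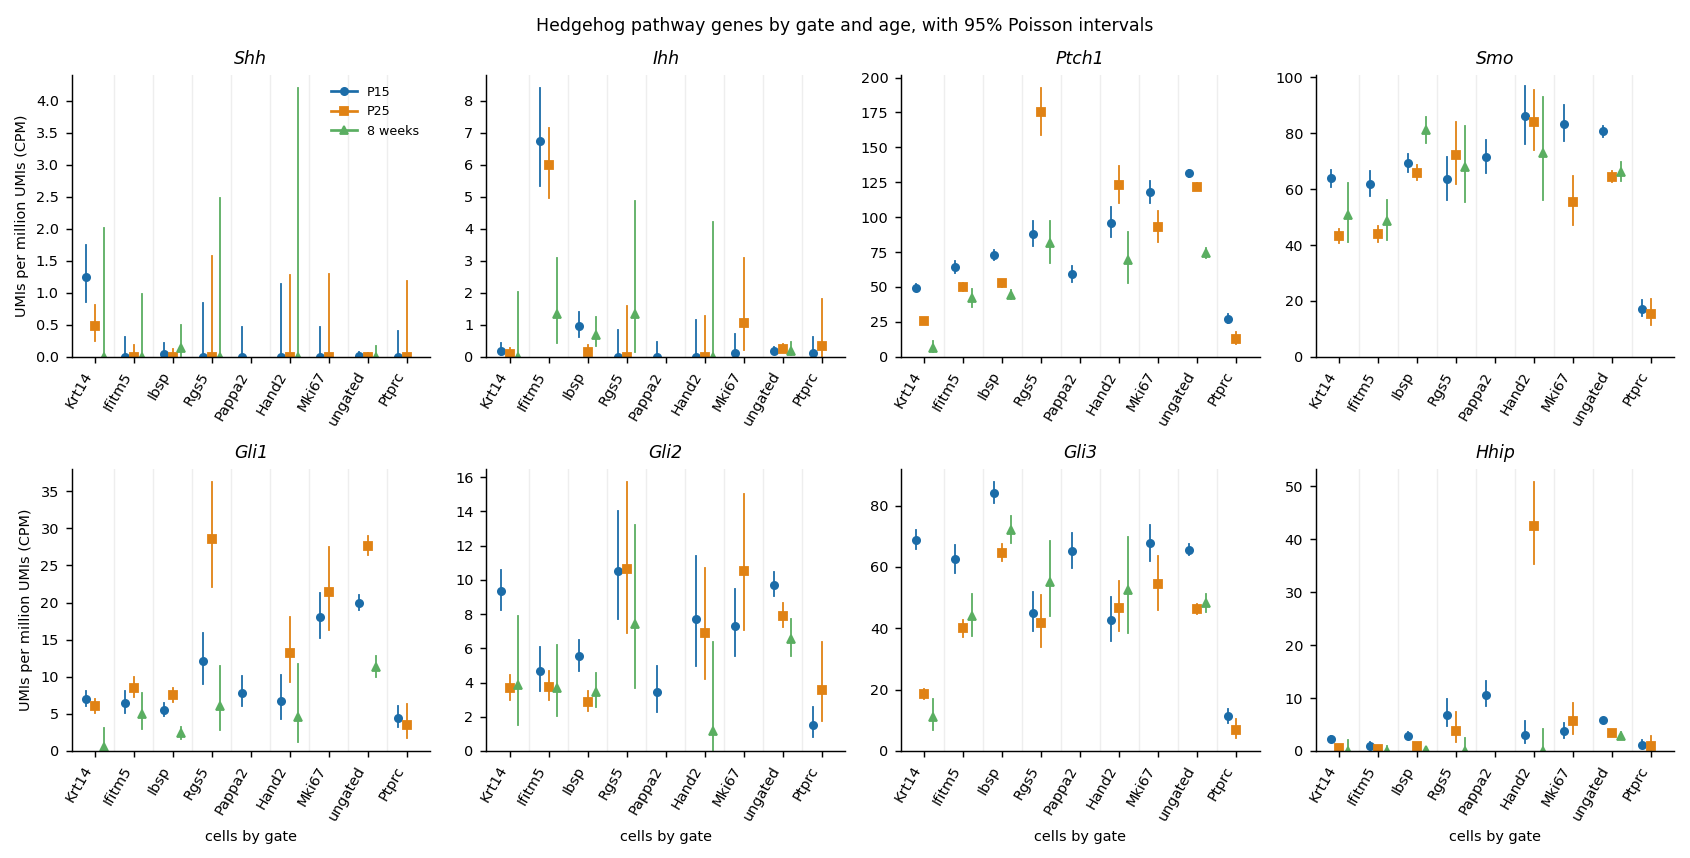
Levels of the 8 genes in CPM (vertical axes, separate scale per gene) in each gate (horizontal axes), with 1 point per library and exact 95% Poisson intervals. At P15 and P25, Shh UMIs sit almost wholly in the Krt14 gate and Ihh UMIs mainly in the Ifitm5 gate, whereas Ptch1 and Gli1 are highest in ungated or Rgs5 cells.

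The receptor gene Ptch1 was highest outside the mineralising and epithelial gates. It measured 131, 122 and 74.1 CPM in ungated cells, 88.0, 175 and 81.4 in Rgs5 cells, 95.9, 123 and 69.4 in Hand2 cells and 118 and 92.8 in Mki67 cells at P15 and P25. In Ibsp cells it was 72.8, 52.7 and 44.5 CPM, in Ifitm5 cells 64.2, 49.9 and 41.8, and in Pappa2 cells 59.1 at P15. Krt14 cells had 49.5, 25.6 and 6.56 CPM, the lowest level of any gate other than Ptprc in each library. Ptprc cells had 27.4 and 12.9 CPM, and 0 in the 18 cells of 8 weeks. Ungated cells were above Ibsp cells in every library, 1.80 times (1.72 to 1.89) at P15, 2.31 times (2.20 to 2.44) at P25 and 1.67 times (1.52 to 1.83) at 8 weeks. Ibsp and Ifitm5 cells stood next to each other in the order of levels, and the fit gave a difference of -0.08 between them (SE 0.35, adjusted p = 0.964).

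Gli1, the activator and target gene, was likewise highest in ungated, Mki67 and Rgs5 cells. The lower gates lay close together at P15. They ran from 6 CPM in Krt14 cells to 13.2 in Hand2 cells at P25, and from 0.547 in Krt14 cells to 5.03 in Ifitm5 cells at 8 weeks. At P15 the Gli1 level in Hand2 cells, from 22 UMIs, was slightly below those of Krt14 and Pappa2 cells, unlike that of Ptch1. That small difference was not tested, so it ranks none of these gates. It measured 20.01, 27.6 and 11.3 CPM in ungated cells, 18.1 and 21.4 in Mki67 cells and 12.1, 28.5 and 6.05 in Rgs5 cells. In Hand2 cells it was 6.79, 13.2 and 4.55 CPM, in Ifitm5 cells 6.48, 8.55 and 5.03, in Ibsp cells 5.53, 7.53 and 2.37, in Krt14 cells 7.06, 6 and 0.547, and in Pappa2 cells 7.85 at P15. Ptprc cells had 4.47 and 3.54 CPM at P15 and P25 and 0 in the 18 cells of 8 weeks, a background to be set beside the low levels of the mineralising and epithelial gates. Ungated cells were 3.62 times Ibsp cells at P15 (3.05 to 4.31), 3.67 times at P25 (3.21 to 4.22) and 4.78 times at 8 weeks (3.35 to 7.02). Against Mki67 cells the ratio was 1.11 at P15 (0.932 to 1.32) and 1.29 at P25 (1.00 to 1.70), so these neighbours differed little beyond counting error.

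The share of ungated cells with a Ptch1 UMI, with each cell thinned to 3000 UMIs, was 27.8% at P15, 24.9% at P25 and 16.2% in the 8-week library, against 3.91%, 2.16% and 0 of Ptprc cells. For Gli1 these shares were 5.78%, 7.80% and 2.79%, against 1.16%, 0 and 0. Unthinned, Ptch1 was seen in 51.9%, 52.8% and 29.5% of ungated cells and Gli1 in 19.1%, 26.2% and 7.07%. Median depth was 12957, 14660 and 7329.5 UMIs in ungated cells and 10083, 15320 and 10398 in Ptprc cells. Thinning left out 1377, 540 and 789 ungated cells and 61, 0 and 3 Ptprc cells that were shallower.

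Smo, which carries the signal from the receptor, varied less among gates. It was 80.6, 64.5 and 66.2 CPM in ungated cells, 86.0, 84.1 and 72.9 in Hand2 cells, 69.2, 65.9 and 81.1 in Ibsp cells and 63.9, 43.1 and 50.8 in Krt14 cells. Ptprc cells stood apart, at 17.2, 15.5 and 15.2 CPM. Gli3, the main repressor-forming factor, was highest in Ibsp cells at 84.2, 64.7 and 72.1 CPM, against 65.6, 46.2 and 48.2 in ungated cells, so its order between these groups was the opposite of that of Ptch1 and Gli1. The ungated cells had 0.779, 0.715 and 0.668 times the Gli3 level of the Ibsp cells. In Krt14 cells Gli3 went from 68.9 CPM at P15 to 18.4 and 10.9. Gli2, the main activator-forming factor, was 10.5, 10.6 and 7.40 CPM in Rgs5 cells, 9.72, 7.90 and 6.56 in ungated cells, 9.33, 3.66 and 3.83 in Krt14 cells and 5.53, 2.88 and 3.45 in Ibsp cells.

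Hhip, which binds ligand at the cell surface, had a single high sum. In Hand2 cells it measured 3.08 CPM at P15 (10 UMIs), 42.6 at P25 (123 UMIs) and 0 in the 8-week library, where 3 UMIs would have been 3.42 CPM, so that the ratio of 8 weeks to P15 had an interval up to 1.65 and that to P25 one up to 0.1. In ungated cells it was 5.76, 3.38 and 2.89 CPM, in Rgs5 cells 6.86, 3.83 and 0, and in Ibsp cells 2.88, 1.02 and 0.203. The P25 value in Hand2 cells thus stood far above every other sum, and it came from 15 of 143 cells, with 32 UMIs in a single cell and 3 cells holding 50% or more. These 15 cells were led by Acta2, smooth muscle actin, at 817 CPM against 84.1 in the other Hand2 cells, and had Myh11, smooth muscle myosin, at 266 against 25.4. Their Ptch1 level was 239 CPM against 104, and Gli1 27.1 against 10.9, the latter from 11 and 27 UMIs. These cells were picked by their own Hhip UMIs in a single library and were deeper, with medians of 25672 against 19584.5 UMIs. The values carry no test. In Pappa2 cells at P15, Hhip was 10.6 CPM (84 UMIs), and 34 of those UMIs came from 1 cell.

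In the comparison of Krt14 cells with the mean of the Ibsp, Ifitm5, Hand2, Rgs5 and Pappa2 gates, Ptch1 was lower in the epithelium. UMI sums per library and gate were tested with edgeR's quasi-likelihood test with the library as a block, over 18 sums and 13876 genes, and p-values were adjusted by the Benjamini-Hochberg method. The libraries are different ages, so the test asks what held over ages. With the library as a block, its p-values set a gate difference against the variation of gate differences between libraries, pooled over all 18 sums. The Mki67 gate had sums at P15 and P25 only and the Pappa2 gate at P15 only. The fit sets these sums, adjusted for library, against effects of the other gates taken over all 3 libraries. Pappa2 thus enters the mesenchymal means of the other comparisons through its P15 sum alone. Fits without P15 have no Pappa2 sum, and their means leave this gate out. The log2 fold change of Ptch1 was -1.31 (SE 0.31, adjusted p = 0.00362). Of the 7 members tested it alone passed, with 0 higher and 1 lower, in a comparison in which 31.4% of all genes were called higher and 24.8% lower. The members' median was -0.61 and that of all genes 0.06. The others were Smo at -0.29 (SE 0.12, adjusted p = 0.0546), Gli1 at -0.61 (SE 0.27, adjusted p = 0.0745), Gli3 at -0.69 (SE 0.31, adjusted p = 0.0805), Hhip at -1.55 (SE 0.79, adjusted p = 0.115), Gli2 at 0.27 (SE 0.30, adjusted p = 0.452) and Ihh at -0.24 (SE 0.85, adjusted p = 0.842). Without the P25 library the Ptch1 difference was -1.28 with an adjusted p of 0.0828, and with lower gate thresholds it was -0.53 with 0.0686.

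Krt14 cells were not uniform in these genes. Across bands of 5 to 9, 10 to 99 and at least 100 Krt14 UMIs, Ptch1 was 127, 54.5 and 18.2 CPM at P15 and 106, 89.5 and 13.8 at P25. Gli1 was 20.4, 6.19 and 2.30 CPM at P15 and 32.7, 16.5 and 2.54 at P25. The cells with fewest Krt14 UMIs thus had levels like those of ungated cells, together with the low epithelial marker sums given above. From the lowest to the highest band the ratio was 6.96 for Ptch1 at P15 (6.07 to 8.01) and 7.64 at P25. Cells with at least 100 Krt14 UMIs were at 0.664 times the Ptch1 level of Ptprc cells at P15 (0.558 to 0.790) and 1.07 times at P25 (0.771 to 1.53), that is, no higher than Ptprc cells beyond counting error. Their Gli1 was 0.513 times that of Ptprc cells at P15 (0.319 to 0.823). With the gate set at 100 Krt14 UMIs, an alternative added after the data were seen, Ptch1 was lower, at -2.22 (adjusted p = 1.31e-06), Gli1 at -1.90 (adjusted p = 1.12e-05), Gli3 at -1.60 (adjusted p = 5.58e-05), Hhip at -2.53 (adjusted p = 0.0158) and Smo at -0.34 (adjusted p = 0.0109). The main gate already called 24.8% of all genes lower and 31.4% higher. The share at 100 Krt14 UMIs is not given here, nor are Gli2 and Ihh, so the members called cannot be set against their own background. This threshold follows the bands above, in which Ptch1 and Gli1 go down, so these p-values add no independent support.

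Gli3 had another pattern across the bands, and at P15 it was highest in the middle one. It was then 103, 150 and 26.5 CPM in the bands of rising Krt14, and at P25 61.3, 68.1 and 11.5, where the intervals of the lower bands overlapped. Compared with cells of at least 100 Krt14 UMIs, the 581 cells of the middle band at P15 were led by the collagen gene Col14a1 at 655 CPM against 10.97 and Sulf1, a heparan sulfate sulfatase, at 589 against 19.6, and they had more Dcn, the proteoglycan decorin, at 1101 against 103 and Msx2, a homeobox gene, at 349 against 29.4. The bands were divided by Krt14 UMIs alone after the data were seen, so these values have no test. Shh was at 3.54 CPM (20 UMIs) in the middle band at P15, 0.893 (14 UMIs) in the highest and 0 in the lowest, whereas at P25 all 13 UMIs were in the highest band, and with so few cells behind them these values rank no band.

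**Figure D2:**
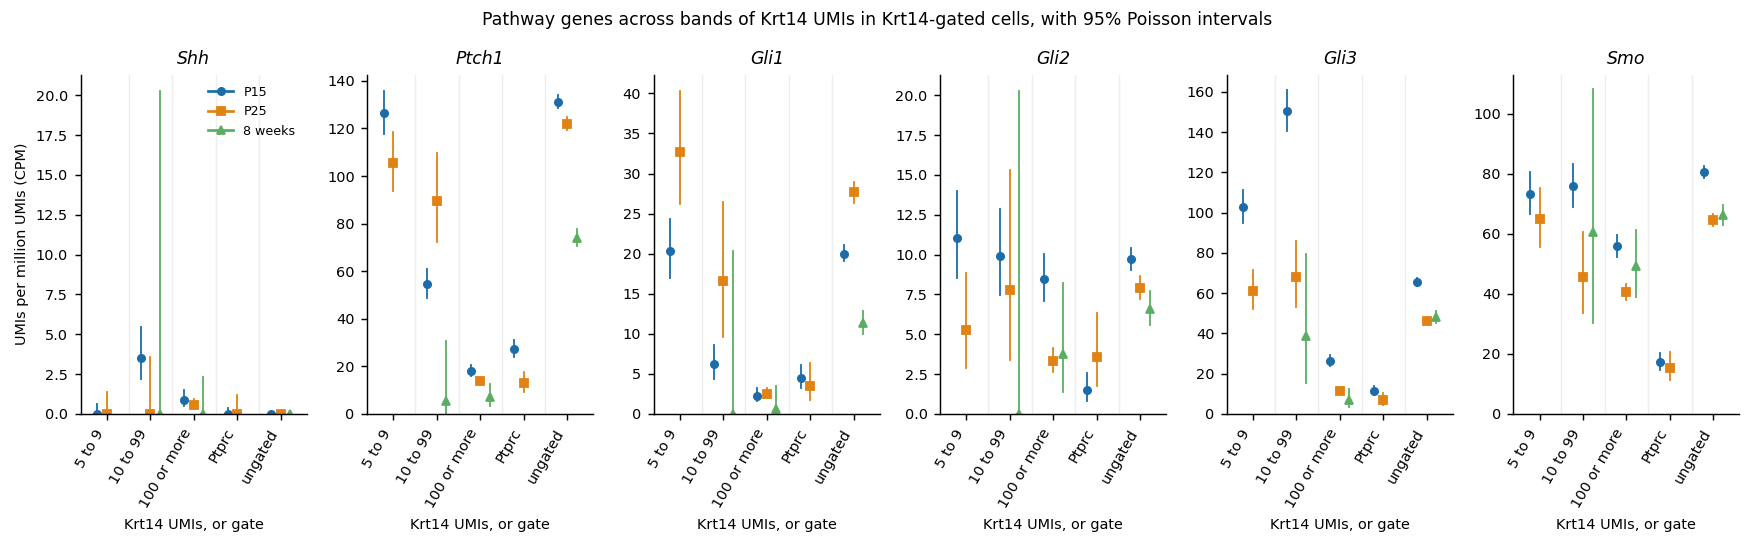
Levels of pathway genes in CPM (vertical axes) in Krt14-gated cells divided by their Krt14 UMIs, beside other gates (horizontal axes), per library with 95% Poisson intervals. Ptch1 and Gli1 go down from the band of 5 to 9 to the band of at least 100 Krt14 UMIs at P15 and P25, whereas Gli3 peaks at 150 CPM in the band of 10 to 99 at P15.

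Between Ibsp and Ifitm5 cells, 0 of the 7 members tested passed edgeR's test in either direction, where 2.10% of genes were called higher and 2.91% lower. By unadjusted p under 0.05 there was 1, Ihh, where 18.8% of all genes had such a p, and by DESeq2 there were 0. Between Hand2 cells and the mean of the other mesenchymal gates 0 of 7 passed as well, with 1.99% of genes called higher and 1.64% lower. Hhip was the single member with an unadjusted p under 0.05 there, as had 18.2% of all genes, and DESeq2 called it (adjusted p = 0.0336). In edgeR its log2 fold change was 2.92 (SE 0.78, adjusted p = 0.0613). Without P25 it was -0.38 (adjusted p = 0.916), so the value depended on the P25 library. Without P15 it was 4.97 (adjusted p = 0.000424), against a mean that no longer held the Pappa2 gate. Placing Hand2 before Ibsp and Ifitm5 in the gate order gave 0.99 (adjusted p = 0.419). In the main gates Ihh had 0 UMIs in Hand2 cells and 0 in Pappa2 cells. It is counted among the 7 in both comparisons, though its fold change could not be estimated in either.

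Hand2 cells that passed no mineralising gate differed from those that did. Cells with at least 3 Hand2 UMIs in the Ibsp gate had Ptch1 levels of 72.9, 44.3 and 35.8 CPM, and Ibsp cells without Hand2 had 72.8, 57.4 and 49.9, so that the former were level at P15 and 0.772 times the latter at P25 (0.695 to 0.857) and 0.718 times at 8 weeks (0.606 to 0.849). Hand2 cells outside the mineralising gates were 1.31 times the Ibsp cells with Hand2 at P15 (1.01 to 1.72), 2.78 times at P25 (2.42 to 3.18) and 1.94 times at 8 weeks (1.43 to 2.59). For Gli1 the Ibsp cells with Hand2 had 3.04, 4.17 and 1.58 CPM and those without had 5.63, 9.40 and 2.86.

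**Figure D3:**
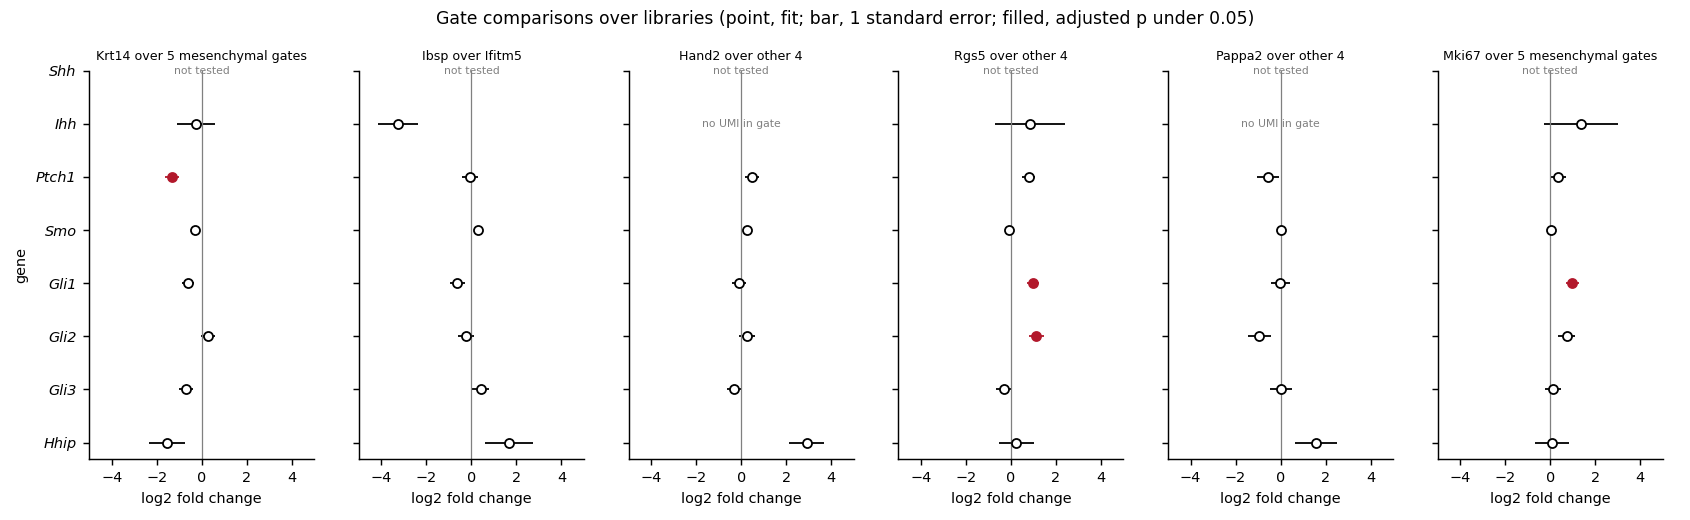
Log2 fold changes of the members (horizontal axes) in each comparison of gates (1 panel each), as points with bars of 1 standard error, filled where the adjusted p was under 0.05. Filled points are Ptch1 for Krt14 cells, Gli1 and Gli2 for Rgs5 cells, and Gli1 for Mki67 cells.

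Rgs5 cells had more Gli1 and Gli2 than the mean of the other mesenchymal gates. Gli1 was higher by 0.99 on the log2 scale (SE 0.28, adjusted p = 0.042) and Gli2 by 1.13 (SE 0.33, adjusted p = 0.0454), while Ptch1 at 0.79 did not pass (SE 0.30, adjusted p = 0.118). These were 2 higher and 0 lower of 7, where 6.92% of genes were called higher and 3.37% lower. Gli1 did not pass without P25 (0.67, adjusted p = 0.611), and Gli2 did not pass when each library was left out in turn (adjusted p = 0.0729 to 0.336). Cells with at least 30 Rgs5 UMIs numbered 156 at P15, 5 at P25 and 0 in the 8-week library, and at P15 their mural marker sum was 3719 CPM against 913 in cells with 3 to 29. At P15 they had 53.5 CPM of Ptch1 against 115 (0.466 times, 0.368 to 0.585), 12.5 against 11.8 of Gli1, 15.6 against 6.53 of Gli2 and 0 against 12.2 of Hhip. With the gate at 30 UMIs, only P15 gave an Rgs5 sum, so this fit leaves out the P25 and 8-week Rgs5 cells. Ptch1 then turned to -0.76 and Gli1 was 0.57.

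Mki67 cells, which passed no lineage gate, had more Gli1 than the mesenchymal gates, by 0.98 on the log2 scale (SE 0.28, adjusted p = 0.0285). It was the 1 member of 7 that passed, with 13.3% of all genes called higher and 4.96% lower. The call was lost without P15 (0.71, adjusted p = 0.228) and without P25 (1.07, adjusted p = 0.35). The Gli1 level of Mki67 cells was close to that of ungated cells, which were not in the fit. For the Pappa2 gate, which rests on 1 sum at P15, 0 of 7 members passed in edgeR, by unadjusted p under 0.05 or in DESeq2, where 0.123% and 0.0216% of genes were called higher and lower.

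Within the ungated cells, parts picked by at least 5 UMIs of a marker after the data were seen, which overlap each other, differed in level. Ptch1 was 164, 152 and 81.0 CPM in cells with Ogn, the proteoglycan osteoglycin, 158, 130 and 99.1 with Thbs4, a thrombospondin, 150, 169 and 73.0 with Pcp4 and 98.3, 112 and 68.7 with Nts, the periapical marker neurotensin. Gli1 was 23.7, 34.0 and 11.7 CPM with Ogn and 23.8, 38.1 and 9.76 with Pcp4. Hhip was highest with Mgp, the mineralisation inhibitor matrix Gla protein, at 12.3, 16.9 and 17.7 CPM, and did not go down with age there as it did in the ungated cells as a whole. Divided at the median depth, ungated cells below and above it had Ptch1 levels of 139 and 129 CPM at P15, 135 and 117 at P25, and 69.7 and 75.3 at 8 weeks.

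Ptch1 and Gli1 also met in the same cells. Ungated cells with a Gli1 UMI, 1249, 1140 and 213 in number, had 183, 188 and 114 CPM of Ptch1, against 113, 90.7 and 69.5 in those without. Ranked by this ratio (with 20 CPM added to both) among genes seen in at least 50% of the Gli1-bearing cells, Ptch1 came directly after Gli1 itself at P15 and P25 and took rank 8 at 8 weeks. Smo differed less, at 88.3, 65.8 and 68.6 CPM against 77.9, 63.9 and 65.9. Cells with Gli1 were also deeper, with medians of 16244, 16845 and 10835 UMIs against 11851.5, 13740.5 and 6982, and the part of depth in the result was not tested. The 266, 94 and 29 ungated cells with an Hhip UMI had 240, 229 and 124 CPM of Ptch1, against 125, 119 and 73.4.

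**Figure D4:**
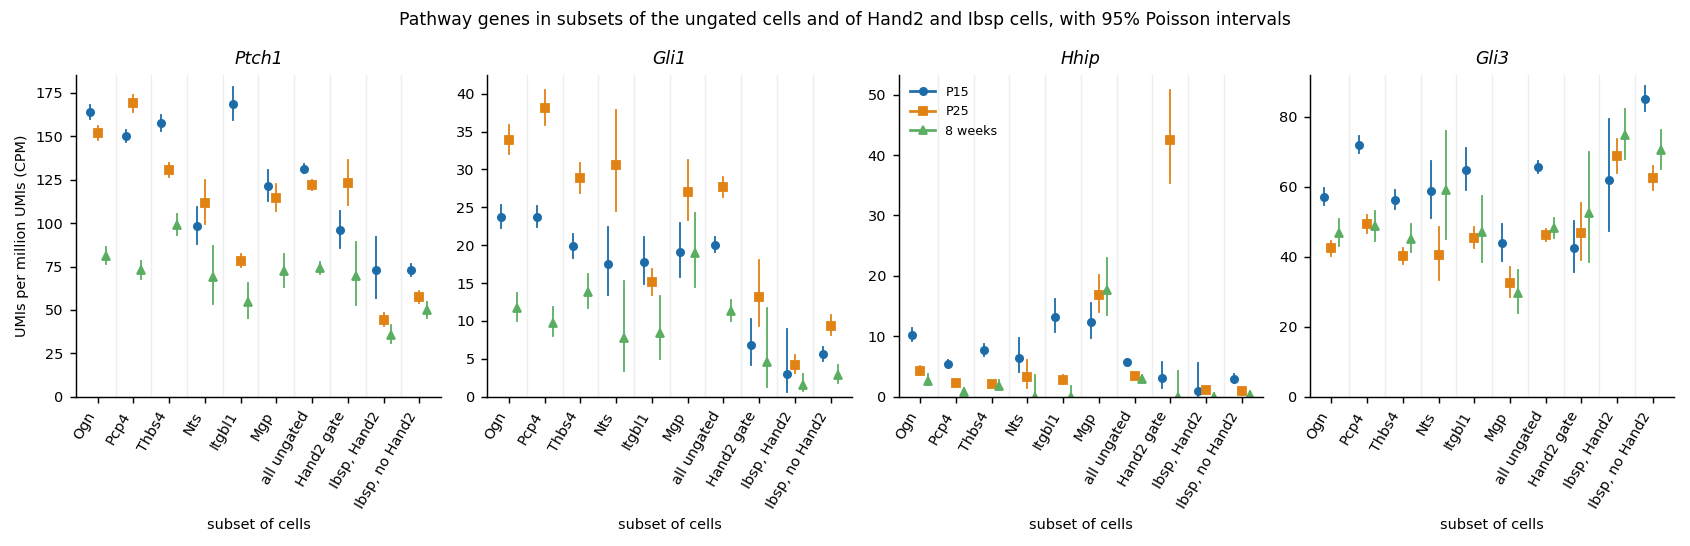
Levels of Ptch1, Gli1, Hhip and Gli3 in CPM (vertical axes) in parts of the ungated cells and in Hand2 and Ibsp cells (horizontal axes), per library with 95% Poisson intervals. Ptch1 lies between 150 and 169 CPM in the Ogn and Pcp4 parts at P15 and P25, and Hhip stands out at 42.6 CPM in Hand2 cells of P25.

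Across the 18 sums, with log2(CPM + 1) centred on each library, Ptch1 and Gli1 had a Pearson r of 0.86, Ptch1 and Gli3 0.68, and Ptch1 and Smo 0.67, whereas Ihh and Ptch1 had -0.02. The target gene Hhip had only 0.39 with Ptch1 and 0.35 with Gli1, and Gli2 had 0.34 with Ptch1. Sums of 1 library share its cells and depth, so these are descriptions. Among 10317 genes with a mean of at least 5 CPM, those most like Ptch1 in pattern were Scai (r = 0.951), Runx3 (0.945), Gm11627, Lrch2 and Usp11. Those most like Gli1 were Fez1 (0.917), Maob (0.912), Man2b1 (0.907), Pcdh9 and Ifngr1. For Hhip the best was Cxcl10 at 0.844, and for Ihh Gtf2e2 at 0.868.

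Other genes of the pathway, 23 chosen by role, were read in the same fit, in which 21 passed the filter on low counts. In Krt14 cells 1 was higher and 11 lower, where 31.4% of all genes were called higher and 24.8% lower, with a median of -0.66 over the 21 against 0.06 over all genes. The largest differences were of Foxf1 (-2.56, SE 0.41, adjusted p = 0.00025) and Foxf2 (-2.52, SE 0.41, adjusted p = 0.000289), forkhead factor genes that are Hedgehog targets in other tissues. Foxf1 was 32.2, 22.2 and 1.64 CPM in Krt14 cells against 152, 142 and 121 in Ibsp cells. Of the reception genes, Gas1, a ligand co-receptor, was lower, at -1.32 (adjusted p = 0.00419) and Boc, another co-receptor, at -0.54 (adjusted p = 0.0286). Of the genes of ligand release, Scube3 was lower, at -1.61 (adjusted p = 0.00346) and Disp1, the ligand transporter Dispatched, at -1.01 (adjusted p = 0.00803). Of the transduction genes, the ciliary genes Evc2 (-0.83), Evc (-0.74) and Kif7 (-1.01) were lower. The target genes Bcl2 (-1.03) and Ccnd2 (-0.66) were lower and Ccnd1, a G1 cyclin gene, higher (1.13, adjusted p = 0.00206). Without P25, 7 of the 12 calls were lost, namely Bcl2, Boc, Ccnd2, Disp1, Evc, Kif7 and Scube3.

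In the other comparisons fewer of these genes passed. Disp1 was lower in Ibsp than in Ifitm5 cells at -1.26 (SE 0.30, adjusted p = 0.0315), at 5.57, 5.73 and 7.71 CPM against 11.8, 13.9 and 12.7, so the Ifitm5 gate had more of this transporter gene in every library. That call was lost without P25 (adjusted p = 0.795) and without 8 weeks (adjusted p = 0.0777). Rgs5 cells were higher in Gas1 (1.58, adjusted p = 0.00606), at 573, 941 and 1652 CPM, and in Bcl2 (1.28, adjusted p = 0.00438), and both calls were lost without P25 (adjusted p = 0.103 and 0.204) and without 8 weeks (adjusted p = 0.0553 and 0.0572). Mki67 cells were higher in Scube1 (2.01, adjusted p = 0.00192) and Mycn (1.43, adjusted p = 0.00513) and lower in Ccnd2 (-1.66, adjusted p = 0.00028), and the 3 calls were lost without P25 (adjusted p = 0.236, 0.139 and 0.0578). For Hand2 and Pappa2 cells 0 of 21 passed in edgeR, with 4 in each (19.0%) at an unadjusted p under 0.05, as had 18.2% and 7.3% of all genes, and 1 and 0 called by DESeq2.

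By age, the pathway's target genes were lower at 8 weeks than at P15 in mesenchymal cells, here all cells that were neither immune, epithelial nor mixed (10022, 7595 and 5040 cells). This group is defined by exclusion, so it can hold endothelial and glial cells, which are among the paper's clusters. Ptch1 was 108, 92.1 and 61.5 CPM, so that 8 weeks was 0.570 times P15 (0.547 to 0.594). Gli1 was 14.8, 18.7 and 7.43 CPM, with its highest level at P25, 1.26 times P15 (1.19 to 1.34), and 0.501 times P15 at 8 weeks (0.444 to 0.563). Hhip was 4.95, 3.24 and 1.57 CPM, and 8 weeks was 0.317 times P15 (0.244 to 0.406). Smo changed least, at 76.2, 61.9 and 69.8 CPM and 0.917 times (0.880 to 0.954). Gli3 was 67.7, 50.1 and 56.1 CPM and Gli2 8.01, 5.98 and 5.18. Hhip was the 1 member of the 7 with enough UMIs to be past 2-fold lower, where 12.2% of 14935 genes were lower and 5.09% higher by that much. From P25 to 8 weeks, Ihh, Gli1 and Hhip were past 2-fold lower, against 6.45% of genes lower and 4.86% higher, and from P15 to P25 0 members were past 2-fold in either direction, against 11.4% lower and 5.02% higher. The median log2 ratio of all genes was -0.20 for P25 over P15 and -0.05 for 8 weeks over P15. With 1 library per age, age cannot be told apart from library, and the 8-week library was the shallowest.

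The lower Ptch1 level at 8 weeks was seen within gates too, though not to the same degree. The ratio of 8 weeks to P15 was 0.564 in ungated cells (0.536 to 0.594), 0.610 in Ibsp cells (0.558 to 0.667), 0.652 in Ifitm5 cells (0.545 to 0.774), 0.724 in Hand2 cells (0.541 to 0.955) and 0.925 in Rgs5 cells (0.748 to 1.14), the last with an interval that includes equal levels. Rgs5 cells had most Ptch1 and Gli1 at P25, 1.99 and 2.36 times P15, with the drop in mural markers given above. In ungated cells Gli1 was 0.566 times P15 at 8 weeks (0.494 to 0.646), and in Ibsp cells 0.428 times (0.287 to 0.623), whereas the intervals included equal levels in Ifitm5 cells at 0.776 (0.443 to 1.30), in Hand2 cells at 0.671 (0.168 to 1.98) and in Rgs5 cells at 0.50 (0.217 to 1.02). The share of Gli1 among the Gli1 and Ptch1 UMIs of mesenchymal cells was 12.1%, 16.9% and 10.8%.

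In Krt14 cells, Shh, Gli2, Gli3 and Hhip were past 2-fold lower at P25 than at P15, which was 4 lower and 0 higher of 7 members, against 16.2% of genes lower and 7.50% higher. Gli3 was 0.268 times P15 (0.242 to 0.296) and Ptch1 0.518 times (0.472 to 0.568). The 8-week values rest on 127 cells, with Ptch1 0.133 times P15 (0.0684 to 0.232) from 12 UMIs and Gli3 0.159 times (0.0967 to 0.246). Shh and Hhip had no UMI at 8 weeks, and for Shh the interval of the ratio reached 1.71. Cells with 5 to 9 Krt14 UMIs made up 507 of the Krt14 cells at P15, 160 at P25 and 17 in the 8-week library. The band of 10 to 99, where Gli3 was highest at P15, held 581, 176 and 41 cells. The part of this make-up in the ratios of the whole gate was not tested. Within cells of at least 100 Krt14 UMIs Ptch1 was 18.2, 13.8 and 6.94 CPM and Gli3 26.5, 11.5 and 6.94.

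**Figure D5:**
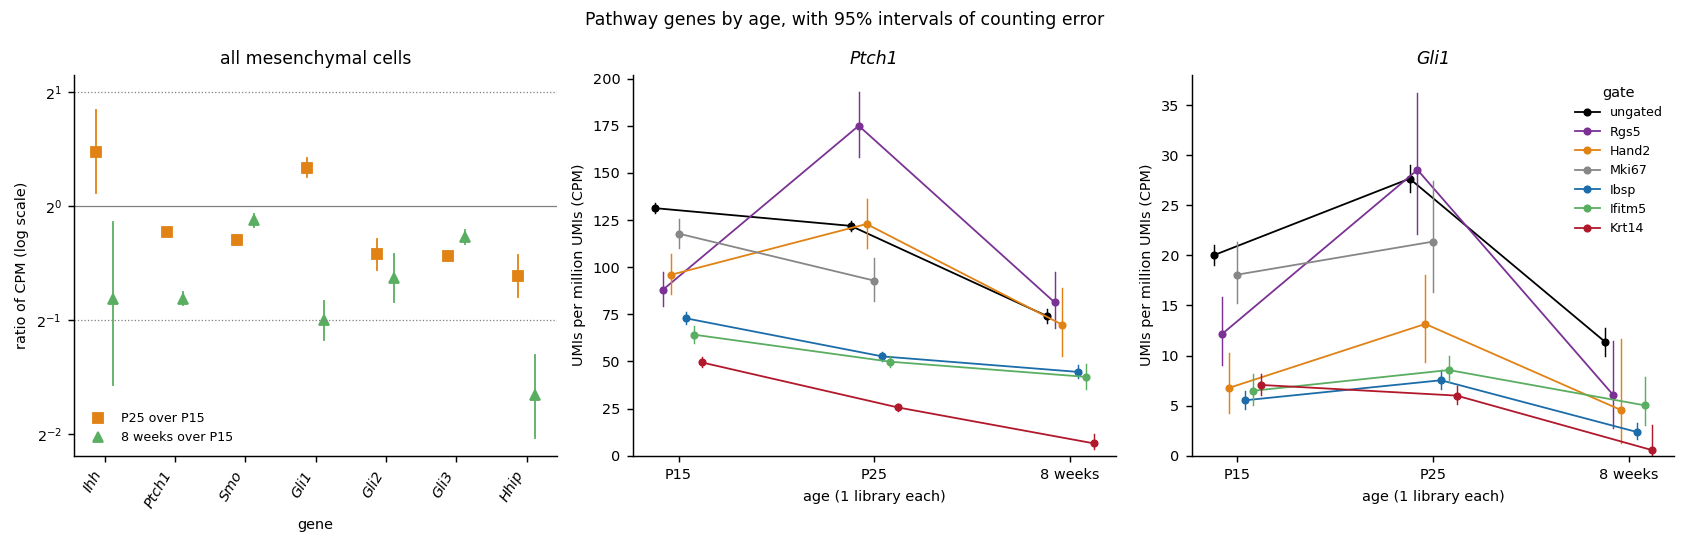
Ratios of CPM to P15 in all mesenchymal cells on a log axis (left, dotted lines at 2-fold either way) and levels by age within gates in CPM (other panels), with 95% intervals of counting error and 1 library per age. At 8 weeks the ratio is 0.570 for Ptch1, 0.501 for Gli1 and 0.317 for Hhip, and Smo stays at 0.917.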

How the data were processed

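Gene by cell matrices of whole UMI counts were deposited by the authors for 3 libraries of sorted mCherry+ molar cells (10x 3' v3.1). The submitters' processing notes name Cell Ranger 6.1.2 and the mouse build mm10, whereas the P25 matrix carries a header of version 6.0.1 and 32293 features against 22056 in the others, so genes were joined by identifier (21446 shared). Counts were kept raw and were summed per library and gate, and gates under 20 cells in a library were left out, which removed the Pappa2 sums of P25 and 8 weeks and the Mki67 sum of 8 weeks. No doublet caller was run, and cells passing gates of several classes were set apart as mixed (390, 209 and 7 cells).

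Sums were tested with edgeR 4.0.16 in R 4.3.3 (TMM scaling, filterByExpr, robust quasi-likelihood fit, called at an adjusted p under 0.05). The library was a block because sums of 1 library come from the same pooled cells and run. No test was made between ages, since each has 1 library, and CPM ratios with exact conditional 95% intervals were given instead. A gene counted as past 2-fold with at least 20 UMIs over both ages. On data simulated for the comparison of Krt14 cells with mesenchyme (13876 genes), 93 of 100 genes changed 4-fold and 47 of 100 changed 2-fold were recovered, with 10 false calls. For Hand2 cells these were 87, 52 and 5, and for Mki67 cells 86, 38 and 3. The Ibsp against Ifitm5, Rgs5 and Pappa2 comparisons were not simulated. Simulated means held no other gate or library differences, so recovery in the real sums can differ. Alternatives were DESeq2 1.42.0, other scalings, filters, gates, cell quality limits, and each library left out. Without P15 the Pappa2 gate had no sum, so it had no comparison of its own and was missing from the means of the others. Those on the Krt14 and Rgs5 thresholds and the gate order were added after the data were seen.

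The 8 members were named in every comparison, the 23 other pathway genes were counted and were named where they passed, and the 5 genes of closest pattern were ranked for each member with at least 100 UMIs. One listed gene and 1 division of the Krt14 cells are not reported here. Members, gates and lists were chosen with earlier results of these data known. No source states that the pooled teeth of a library came from known animals. The p-values therefore set gate differences against their variation between these 3 libraries, not between known animals. PCR duplicates were collapsed by UMI, and intervals and floors (3 UMIs) cover counting error only. Coordinates are from GENCODE vM21 (GRCm38) and promoters from RefSeq.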

Additional observations from a re-analysis of the deposited data

How the results depend on the processing

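A member's fold changes under the alternatives were examined only for comparisons in which it passed in at least 1 setting. Of these fold changes, 115 kept their direction and side of the threshold, 27 passed it newly, 19 no longer passed and 4 turned. The other pathway genes were examined only where the main fit called them. The causes were not tested. The replicate block, here the library, mattered for most counts of called genes. Without the replicate block, 254 genes were called between Ibsp and Ifitm5 cells against 695 with it, 259 against 504 for Hand2, 836 against 1428 for Rgs5 and 1 against 20 for Pappa2, and among the members Gli1 and Gli2 in Rgs5 cells and Gli1 in Mki67 cells no longer passed, while Ptch1 in Krt14 cells did (adjusted p = 0.0183).

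With DESeq2's Wald test the counts were 1242 for Ibsp against Ifitm5, 991 for Hand2 and 96 for Pappa2. Lower gate thresholds gave 5030 against 7788 for Krt14 cells, 241 for Ibsp against Ifitm5, 189 for Hand2, 784 for Rgs5 and 33 for Pappa2, and higher ones 48 for Pappa2. Pappa2 gave 58 genes with cells of a single gate and 58 without the deepest 5% of cells. With Rgs5 at 30 UMIs there were 945 genes for Rgs5 and 49 for Pappa2. Leaving out 1 library at a time gave 3465 to 7784 for Krt14 cells, 1 to 1600 for Ibsp against Ifitm5, 3 to 742 for Hand2, 73 to 1964 for Rgs5, 1 to 14 for Pappa2 and 555 to 2308 for Mki67 (2533 with all), and in each of these 6 comparisons the lowest count was without P25.

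Among the fold changes examined, Gli1 turned in Krt14 cells with lower gates (0.09) and Hhip in Krt14 cells with Rgs5 at 30 UMIs (0.23). Ptch1 (-0.76) and Bcl2 (-0.28) turned in Rgs5 cells with Rgs5 at 30 UMIs. Hhip turned in Hand2 cells without P25 (-0.38, and 4.97 without P15). Unthinned shares of ungated cells were 51.9%, 52.8% and 29.5% for Ptch1 and 19.1%, 26.2% and 7.07% for Gli1. With TMM scaling P25 over P15 in mesenchymal cells was 1.45 for Gli1, 0.982 for Ptch1 and 0.752 for Hhip. Shh at 8 weeks is limited by depth. So is Ihh in the small Hand2 gate, where 0 UMIs at P15 left an interval up to 1.29 times the Ibsp level. In ungated cells at P15, Ihh was 0.026 times the Ifitm5 level (0.0136 to 0.0463), from 14 UMIs.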

Other observations

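The ungated cells that carried Hhip were led by different genes at each age. At P15 the 266 cells were led by Acta2, smooth muscle actin, at 506 CPM against 139 in ungated cells without Hhip, Igfbp5 at 2338 against 808 and Tagln, another smooth muscle gene, at 354 against 137. At P25 the 94 cells were led by Gsn, encoding the actin-severing protein gelsolin, at 4829 CPM against 756, Igfbp6 at 1072 against 230 and the ferritin receptor gene Scara5 at 210 against 50.7. At 8 weeks the 29 cells were led by Mgp at 6534 CPM against 720, Sparcl1 at 1148 against 122 and the homeobox gene Meox2 at 235 against 14.5. The cells were picked by their own Hhip UMIs in single libraries, so these values have no test.

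The third Hedgehog ligand, Dhh, was at 0.495 (70 UMIs), 0.0975 (12 UMIs) and 0.295 CPM (13 UMIs) in mesenchymal cells. As this group can include endothelial and glial cells, which cell type held the Dhh UMIs was not tested. Among the genes that act beside the receptor, Cdon, a ligand co-receptor, went the other way from Ptch1 by age in mesenchymal cells. It was at 7.33, 9.94 and 18.6 CPM at P15, P25 and 8 weeks. Sufu, the cytoplasmic inhibitor of GLI proteins, stayed near level at 12.4, 12 and 11.3 CPM. Hhat, the enzyme that palmitoylates the ligands, was 4.74, 3.66 and 4.30 CPM.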
